A study of Mus musculus with 2 samples.

Results

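miR-124 is made in the mouse from 3 hairpin genes, Mir124a-1, Mir124a-2 and Mir124a-3, which are 3 of the 1174 miRNA hairpin genes of the annotation used. These genes were listed by name and not by a cut-off on a measured value, but earlier results of these data were known when they were chosen. Their products were read from small RNA tags of the J1 line, mouse embryonic stem cells of strain 129S4/SvJae that were grown on gelatin. One group was treated with 1 µM SC1 for 6 h, and the other received an equal volume of DMSO for 6 h; the medium of both held 1000 U/mL LIF. SC1, also called pluripotin, is a compound that blocks ERK1 and RasGAP and keeps such cells undifferentiated. There was 1 library per condition, so no value has a replicate error and no test between conditions was made. The SC1 list held 1275599 reads of 3 to 17 nt and the DMSO list 18870345 reads of 18 to 44 nt. Intervals are exact (Clopper-Pearson) 95% binomial intervals unless stated otherwise, and they cover counting error only, since the reads carry no molecular identifiers and may be PCR copies.

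A miRNA hairpin is cut first in the nucleus by Drosha and then in the cytoplasm by Dicer, which leaves a short duplex of a 5p and a 3p arm. One arm is kept by an Argonaute protein, and its seed, bases 2 to 8, pairs with target mRNAs. A shift of the first base therefore changes the seed, whereas changes at the last bases do not. Isoforms of this kind are called isomiRs. Terminal uridylyl transferases can add U to the 3′ end, read as T in these tags, and other nucleotidyl transferases add A. miR-124 is best known as an abundant miRNA of neurons, where its 3p arm represses non-neuronal genes such as Ptbp1, a splicing repressor, and Ctdsp1, a phosphatase that acts with the REST repressor.

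The exact tags of the 3p arm that made up at least 1% of its DMSO reads were the following, written 5′ to 3′ as deposited with the seed in capitals. They show the common body, the shortened ends and the start that lies 1 base upstream.
3p, main start, 22 nt: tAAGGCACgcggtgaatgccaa
3p, main start, 21 nt: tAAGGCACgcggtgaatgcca
3p, main start, 19 nt: tAAGGCACgcggtgaatgc
3p, main start, 18 nt: tAAGGCACgcggtgaatg
3p, 1 base upstream, 23 nt: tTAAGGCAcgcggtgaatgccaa
The commonest tags of the 5p arm are set beside them, because they show the other strand of the duplex.
5p, main start, 22 nt: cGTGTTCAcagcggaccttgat
5p, main start, 21 nt: cGTGTTCAcagcggaccttga
5p, 2 bases downstream, 22 nt: tGTTCACAgcggaccttgattt

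The hairpins lie on 3 chromosomes of GRCm38, all on the plus strand. Mir124a-1 is at chr14:64590657-64590741, inside an exon of the lincRNA gene Mir124a-1hg, and its main 3p tag covers 64590709 to 64590730. Mir124a-2 is at chr3:17795662-17795770 and overlaps an exon of the lincRNA gene Mir124-2hg, with the main 3p tag at 17795723 to 17795744. Mir124a-3 is at chr2:180894040-180894107 and overlaps an exon of the lincRNA gene Gm27032, with the main 3p tag at 180894083 to 180894104. The hairpins are 85, 109 and 68 nt long, in the order of their numbers. They share the main tags of both arms base for base and differ in the stretch between the arms and outside them. The stretch between the arms is printed here as a part in which all 3 loci differ.
Mir124a-1, 17 nt between the arms: ttaaatgtccatacaat
Mir124a-2, 15 nt between the arms: ttaatgtcatacaat
Mir124a-3, 16 nt between the arms: ttaatgtctatacaat

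In the DMSO list, 8742 reads in 67 distinct tags of 18 to 26 nt came from these hairpins. A tag was counted if it matched a hairpin exactly, or did so once 1 to 3 untemplated A or T were removed from its 3′ end. Every one of the 67 tags matched all 3 hairpins, so the reads could not be divided among the genes, and which loci were transcribed was not measurable. The part that matches was found in 0 other annotated genes, host lincRNAs aside. Reversed tags gave 0 reads, but tags of 18 nt or more seldom match 3 short hairpins by chance, so this count says little. Tags that matched the antisense strand had 4 reads. Of the 67 tags, 21 were seen once.

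Of 16614432 DMSO reads of 18 to 26 nt, 2409009 were assigned to any miRNA hairpin. The 3p arm held almost all of the miR-124a reads. miR-124a-3p had 8698 reads in 60 tags, a level of 3611 reads in each 1000000 reads assigned to any miRNA hairpin (RPM; interval 3535 to 3687). It was number 47 by reads among 483 counted arms. miR-124a-5p had 44 reads in 7 tags, 18.3 RPM (interval 13.3 to 24.5). The 5p arm thus took 0.503% of the reads of both arms (interval 0.366 to 0.675). Without removal of untemplated bases, the 3p arm stood at 2211 RPM with 4815 reads.

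The labelled cell type was checked against its marker miRNAs. Genes of the miR-290-295 cluster, which marks mouse embryonic stem cells, gave 27.6% of the hairpin reads. Genes of the miR-302 cluster, also on the stem cell list, added little. The level was 275844.5 RPM without them and 275937.1 RPM with them. A list of 16 other neural miRNA genes gave 0.9%, and 7 fibroblast miRNA genes gave 0.184%. The counted arms of the neural list were those of miR-9, miR-128, miR-129, miR-138 and miR-219a. The other miRNAs of that list, such as miR-137, had no counted arm. Most of the neural share was 1 arm, miR-128-3p, with 8190.9 of the 8995.4 RPM of that list, while miR-9-5p had 144 RPM. A part of these cell types in the level of miR-124a-3p was not tested.

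The start of the 3p arm was narrow, with a single common shift. The main start took 8098 of 8698 reads, 93.1% (interval 92.5 to 93.6), and its seed is AAGGCAC. The start 1 base upstream took 574 reads, 6.6% (interval 6.09 to 7.14), and its seed is TAAGGCA. The start 1 base downstream held 22 reads, 0.253% (interval 0.159 to 0.383), with the seed AGGCACG. Starts 2 bases downstream and 2 bases upstream had 3 reads and 1 read. On the 5p arm, 42 of 44 reads shared the main start, with the seed GTGTTCA, and the other 2 began 2 bases downstream, with the seed GTTCACA.

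The 7-base complements of these seeds were searched on the sense strand of annotated 3′ UTRs, taking the longest UTR of each of 21685 genes. GTGCCTT, the complement of the main 3p seed, was present in 12.4% of genes. TGCCTTA, the complement of the upstream-shifted seed, was present in 2396 of them against 2692 for the first, and the 2 motifs overlap in 6 bases. Both motifs were present in 955 genes, which are 35.5% of the genes with the first and 39.9% of those with the second. CGTGCCT, for the start 1 base downstream, was present in 3.38%, and TGAACAC, for the main 5p seed, in 10.4%.

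Among 10 genes listed as reported targets of miR-124, all 10 held GTGCCTT, 5 held TGCCTTA, 4 held CGTGCCT and 2 held TGAACAC. Over all genes the shares were 12.4%, 11%, 3.38% and 10.4% in this order. Reported targets are often picked for a match to GTGCCTT, so the first count is no independent evidence. TGCCTTA and CGTGCCT overlap with that motif, so a choice of genes by GTGCCTT bears on their counts too, and these are no independent evidence either. Grb2 and Sos2, adaptor and exchange factor upstream of RAS, and Egr1, a transcription factor induced by ERK signalling, each held 1 copy of GTGCCTT and 0 of TGCCTTA, and Grb2 also held 1 copy of CGTGCCT. Ptbp1, Sox9, Lamc1 and Slc16a1 held 1 copy of TGCCTTA each and Cdk6 held 3. The UTR of Cdk6 is 10220 nt long, while those of the other 9 genes are 1115 to 2743 nt. Ctdsp1 had 5 copies of GTGCCTT and 0 of TGCCTTA. A match describes these letters in this window and shows no binding; mRNA was not analysed here.

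Whole tags of the 3p arm peaked at 22 nt. That length held 5469 reads, 62.9% of the arm (interval 61.9 to 63.9), of which 3963 were untailed and 1506 tailed. At 23 nt there were 2229 reads (25.6%), and here the proportions turned, with 206 untailed and 2023 tailed reads. At 24 nt there were 304 reads, 303 of them tailed. The shorter lengths of 18, 19, 20 and 21 nt had 206, 187, 83 and 194 reads, of which 25 reads in all were tailed. Lengths of 22 and 21 nt led the 5p arm, with 24 and 16 reads.

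**Figure D1:**
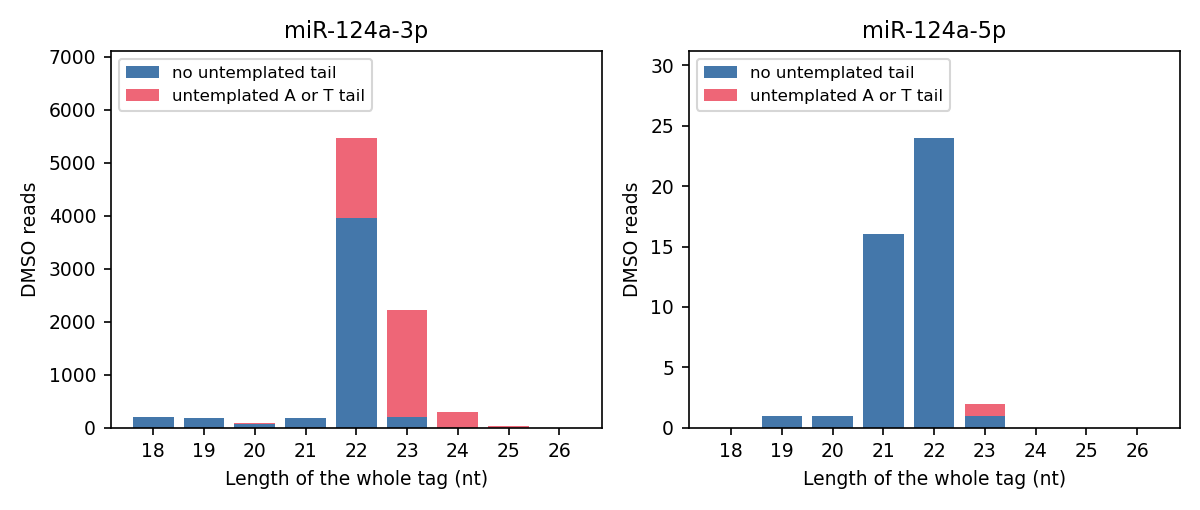
DMSO reads of miR-124a-3p (left) and miR-124a-5p (right) by the length of the whole tag in nt, with untailed reads in blue and reads with an untemplated A or T tail stacked in red. The 3p reads peak at 22 nt (5469 reads), and at 23 nt 2023 of 2229 reads are tailed.

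Many 3p reads carried an untemplated tail, and the tails were chiefly T. Of 8698 reads, 3883 were tailed, 44.6% (interval 43.6 to 45.7). T alone made up 3663 of the tailed reads, 94.3% (interval 93.6 to 95.0). Tails of A alone had 150 reads (3.86%) and tails of both bases 70 (1.8%). A tail of 1 base was seen in 2663 reads, of 2 bases in 1163 and of 3 bases in 57. Untemplated C or G, counted in the same way as a background, gave 27 of 4842 reads, 0.558% (interval 0.368 to 0.81). These 4842 reads leave out the reads with A or T tails. All 3 hairpins continue with G after the main end, so a G added there would be read as templated and is not counted. The 5p arm had 1 tailed read of 44.

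The 4 most abundant tailed tags are shown with the tail in capitals, since together they show untemplated T after matching parts with different ends.
T after a matching part of 21 nt, main start: taaggcacgcggtgaatgccaT
T after a matching part of 22 nt, main start: taaggcacgcggtgaatgccaaT
TT after a matching part of 21 nt, main start: taaggcacgcggtgaatgccaTT
TT after a matching part of 22 nt, 1 base upstream: ttaaggcacgcggtgaatgccaTT
They had 1496, 923, 882 and 164 reads in this order, or 17.2%, 10.6%, 10.1% and 1.89% of the 3p arm, beside 3945 reads (45.4%) of the most abundant exact tag.

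Tailing differed by the base at which the matching part ended. Of 5333 reads whose matching part ended with the most abundant tag, in gccaa, 1174 were tailed, 22.0% (interval 20.9 to 23.2). Of 2864 reads that ended 1 base earlier, in gcca, 2680 were tailed, 93.6% (interval 92.6 to 94.4), and 184 were not. Ends 3 and 4 bases earlier had 205 and 244 reads, of which 5 (2.44%) and 17 (6.97%) were tailed. Ends 2 bases earlier were rare, with 41 reads and 2 of them tailed. All 3 hairpins continue with A after gcca, so an A added there would be read as templated: the 22 nt tag cannot be told apart from the 21 nt body with an added A, and the shares of A tails are lower limits.

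At the gcca and gccaa ends, the 2 common starts had shares of tailed reads with overlapping intervals, but at the gcca end their tails differed in length. At the gcca end, 230 of 248 reads of the upstream start were tailed (92.7%, interval 88.8 to 95.6) and 2444 of 2610 of the main start (93.6%, interval 92.6 to 94.5). At the gccaa end the shares were 19.4% for the upstream start (interval 14.6 to 24.8) and 22.1% for the main start (interval 21 to 23.3). Tails at this end were mostly of 1 T at both starts. The upstream start had 43 reads with T and 4 with TT, and the main start had 923 and 42. Among gcca ends with T or TT, the upstream start had TT in 164 of 212 reads, 77.4% (interval 71.1 to 82.8). The main start had TT in 882 of 2378 reads, 37.1% (interval 35.1 to 39.1). These intervals do not overlap, but they rest on reads of 1 library. At the end 4 bases before gccaa the shares of tailed reads differed too, with 12 of 33 reads of the upstream start (36.4%, interval 20.4 to 54.9) and 4 of 210 of the main start (1.9%, interval 0.521 to 4.8).

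**Figure D2:**
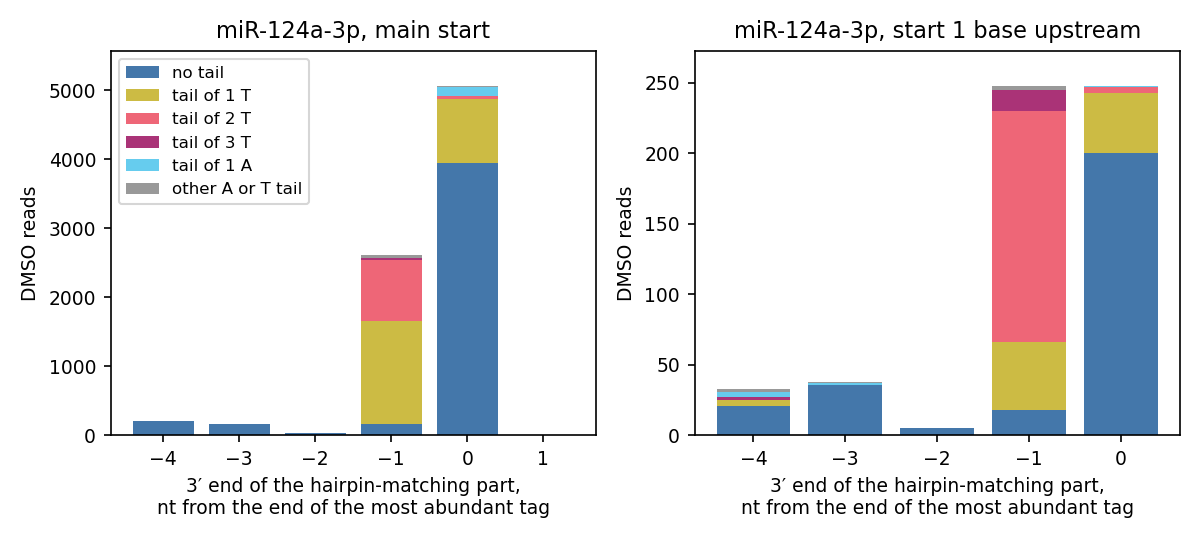
DMSO reads of miR-124a-3p by the 3′ end of the part that matches the hairpin, in nt from the end of the most abundant tag (0), for the main start (left) and the start 1 base upstream (right); colours stand for the tail, and the vertical scales differ. At 1 base before that end, reads with T and TT tails outnumber untailed reads at both starts, and TT leads at the upstream start (164 reads of TT, 48 of T).

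The 22 nt tag that ends in gccaT differs from the most abundant tag by a single base, A22T counted from 1 at the 5′ end. Other single-base differences are given beside it, but earlier positions do not measure errors particular to the last base. A part of such errors in A22T was not tested. Over the 21 earlier positions, single-base variants of the most abundant tag made up 24 reads in all. The highest of these positions, number 13, had 8 reads (0.202%). At position 22, A22T alone had 1496 reads (27.5% of its reads and the unchanged reads together), while 18 reads had G there and 3 had C. Tags that end in gccaTT are 1 base longer and are not single-base variants of that tag.

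**Figure D3:**
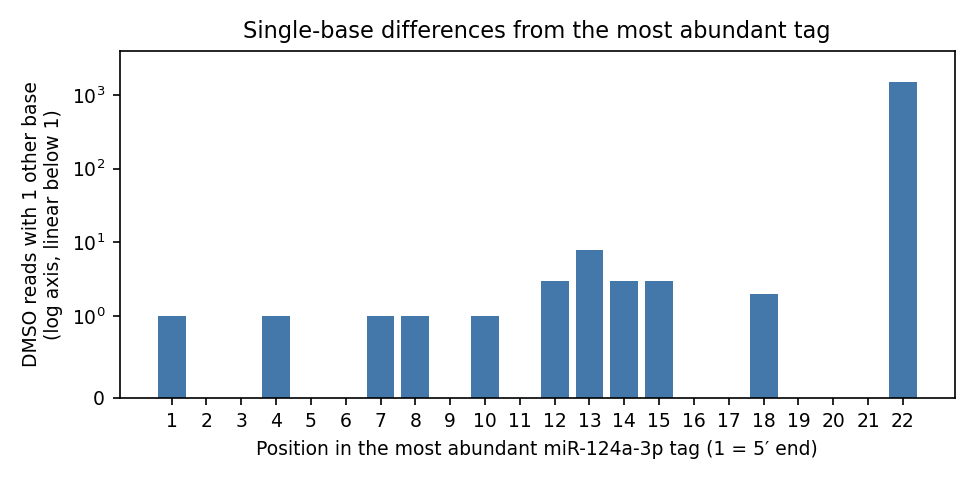
DMSO reads that differ from the most abundant miR-124a-3p tag by 1 base, by position (1 is the 5′ end), on a logarithmic axis that is linear below 1. Positions 1 to 21 have 0 to 8 reads each and position 22 has 1517.

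Few other arms of the DMSO list were tailed as often. Among 138 arms with at least 1000 reads, miR-124a-3p was number 9 by the share of tailed reads. The median arm had 6.46% and the range was 0.322% to 78.0%, with miR-341-3p highest. By tails of T alone it was number 5 with 42.1%, against a median of 1.86%, and by tails of A alone number 95 with 1.72%, against a median of 3.14%. The 7 arms of the let-7 family, a family known for U tailing of its precursors, had a median of 4.19% (range 3.46% to 15.5%). In let-7a, let-7b, let-7c, let-7d and let-7g the hairpin continues with T after the most abundant tag. A T added there would be read as templated and is not counted, so their shares do not measure T tailing fully. The arms let-7e and let-7f, followed by G, had 15% and 3.62%. The 13 arms of the miR-290-295 cluster had a median of 5.06% (range 1.07% to 40.7%). Of the neural list, 1 arm reached 1000 reads, with 6.62%. These are ranks within 1 library, and the hairpin base after each arm decides which added bases can be seen.

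The 5 arms whose division into untailed, A, T and mixed tails was most like that of miR-124a-3p were found by summing the absolute differences in percent over those 4 classes. miR-24-3p was nearest, at a sum of 3.51, with 45.6% tailed and 41.3% of T alone. miR-363-3p followed at 5.73, with 42.6% tailed and 40.9% of T alone. miR-291a-3p and miR-23b-3p both stood at 14.6, each with T alone in 34.8% of reads. miR-152-3p was at 28.0, with T alone in 29.5%.

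**Figure D4:**
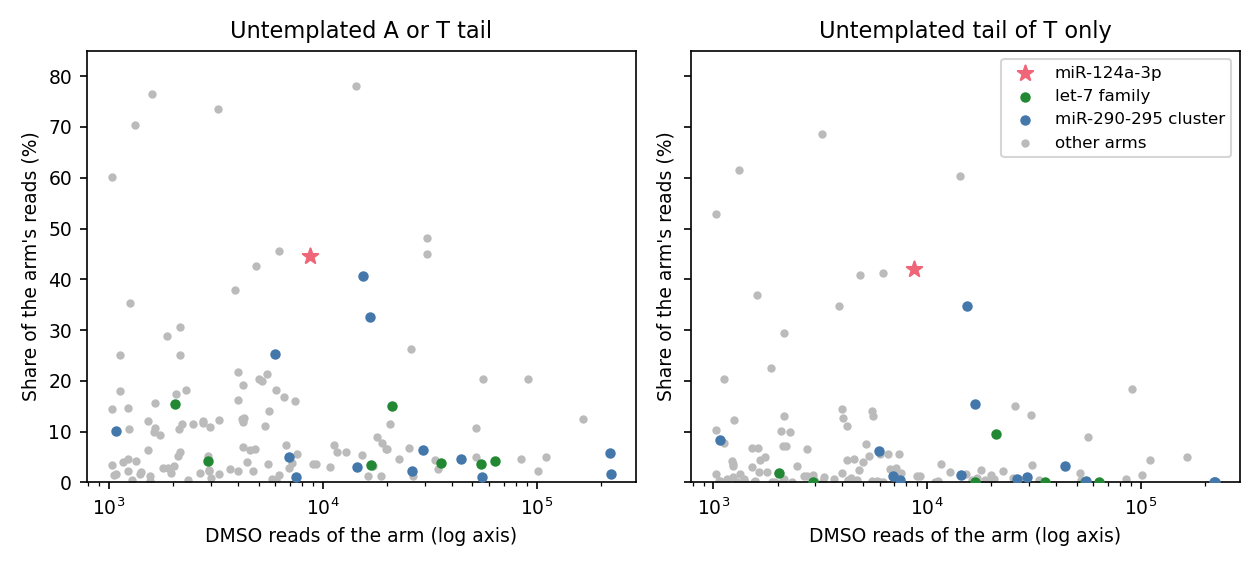
Share of reads with an untemplated A or T tail (left) and with a tail of T alone (right) against DMSO reads on a logarithmic axis, 1 point for each of 138 arms with at least 1000 reads. miR-124a-3p (star) is at 44.6% and 42.1%, above all arms of the let-7 family and the miR-290-295 cluster in both panels. Where the hairpin continues with T after an arm, as in several arms of both groups, a T added there is not counted.

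A comparison limited to arms with the same bases at their end was chosen after seeing the data. In 13 arms the most abundant tag ended in A and the next hairpin base was C or G, as in miR-124a-3p, so an added A or T is visible after the main end and an added A is hidden 1 base before it. miR-124a-3p had the highest tailed share of the 13, whose median was 6.72%. In 11 of them at least 100 reads had a matching part that ended 1 base early. There miR-124a-3p was first with 93.6% tailed, followed by miR-665-3p with 64.9% and miR-877-5p with 51.2%, and the median was 5.07%. In 4 of the 11 the early end was tailed more often than the main end; in miR-151-3p, for example, it was not, with 21.8% at the early end and 50.9% at the main end.

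The series asks which miRNAs SC1 regulates, and the study behind it is known for reporting that SC1 raises miR-124-3p and that this miRNA acts on Grb2, Sos2 and Egr1. The files used here hold no value that can be set beside that report. In the window of 18 to 26 nt the SC1 list had 0 reads of any kind, and the DMSO list had 16614432. At 15 to 17 nt the SC1 list had 1054495 reads and the DMSO list 0. No ratio of SC1 to DMSO was therefore computed for miR-124a, for its isomiRs or for its tails, and neither a rise nor a fall is reported.

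As a note, 8 SC1 reads of 15 to 17 nt matched the hairpins, all on the 3p arm (exact Poisson interval 3.45 to 15.8). They amount to 7.59 in each 1000000 SC1 reads of these lengths (interval 3.28 to 14.9). The 4 tags are shown with the seed in capitals, because they are the exact matches that the SC1 list held at these lengths. Shorter SC1 tags and tailed SC1 tags were not matched.
SC1, main start, 17 nt: tAAGGCACgcggtgaat
SC1, main start, 16 nt: tAAGGCACgcggtgaa
SC1, main start, 15 nt: tAAGGCACgcggtga
SC1, 1 base downstream, 17 nt: aAGGCACGcggtgaatg
They had 3, 2, 2 and 1 reads. All matched the 3 hairpins and 0 other annotated genes, host lincRNAs aside. Reversed tags gave 0 reads, a count that again says little. The 5p arm had 0 reads, which allows up to 2.84 in each 1000000. Exact DMSO tags of the main start had 206 reads at 18 nt, 164 at 19, 34 at 20, 166 at 21, 3945 at 22 and 6 at 23 nt. The lists come from libraries with different treatments and hold different lengths, so condition and length class cannot be told apart. The SC1 list ends at 17 nt, next to the 18 nt at which the DMSO list begins. Whether the SC1 list is the short remainder of a length-filtered library was not tested.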

How the data were processed

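Small RNA was sequenced from 1 SC1 and 1 DMSO library. For each, the authors deposited distinct tags with raw read counts and tag lengths; these are raw. A closing line of the DMSO list that gives a total and no tag was dropped. Per the submitters' processing notes the build was mm9. The aligner, adapter, trimming and any length filter were not given in the sources. Hairpins, coordinates and UTRs are those of GENCODE M21 (GRCm38), matched by sequence, and no mm9 coordinate was used.

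DMSO tags of 18 to 26 nt were matched in sense, with the fewest 3′ A or T removed, up to 3; SC1 tags of 15 to 17 nt were matched exactly. The arm is the side of the hairpin midpoint. Other arms were defined by their most abundant exact tag with 10 reads or more and took tags that started within 2 nt of it; tags shared between names were split equally. Levels are reads in each 1000000 assigned to any hairpin. For a count of 0 the upper limit is that of 3 counts. UTRs include the stop codon.

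Named tags were the exact tags with at least 1% of an arm's reads, at most 8 (of the 5p arm, 3 tags of 1 read are not printed), and the 4 most abundant tailed tags; named arms were the 5 nearest by tail class, and arms named besides were chosen after their values were seen. The members and lists were chosen with earlier results of these data known. Recovery of tail shares was tested on simulated data with tails of T or TT at a fixed start. The simulated tags were built from the same hairpins without sequencing errors and matched in the same way. The run therefore checks the matching only and is no evidence for the tail shares reported. Tails of A, of both bases or of 3 bases were not simulated, so the run does not bear on their shares. Python 3.11.15, scipy 1.17.1 and matplotlib 3.10.9 were used.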

Additional observations from a re-analysis of the deposited data

Results flagged for a closer look

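The 8 SC1 reads of 15 to 17 nt on the 3p arm lie outside the counts of full-length miRNA. The limit of 3 reads that applies to a count of 0 is no measured background, so the 8 reads are given as a count only. The DMSO list had 0 reads of these lengths for any RNA, so the value has no DMSO counterpart, and a part of SC1 in it was not tested. Whether the SC1 list is the short remainder of a length-filtered library was not tested either.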

How the results depend on the processing

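No paired analysis was possible because the study has 1 SC1 and 1 DMSO library. No ratio of SC1 to DMSO could be computed under any setting, and the rank among arms with 10000 reads or more could not be given because miR-124a-3p has fewer. Values within the counting interval of the reported one, or ranks within 1.5 times of it, are taken as kept. All values of both arms were kept with tags of at least 2 or at least 10 reads, with a matching part of at least 18 nt, and without tags that exactly match another hairpin gene. With exact matches only, the 3p level (3611 RPM) was 2211 RPM, the main start share (93.1%) 93.9%, the share of 22 nt tags (62.9%) 82.3% and the 5p share (0.503%) 0.885%, because tailed tags are then not counted. With at most 1 base removed, the 3p level was 3178 RPM, the tailed share (44.6%) 35.6%, the main start share 94.6% and the 22 nt share 73.1%. With tags of 20 to 24 nt the tailed share was 46.6% and the 22 nt share 66.1%. By distinct tags the 3p level was 4468 and the 5p level (18.3 RPM) 521 in each 1000000 tags, the tailed share 76.7%, the main start share 50.0%, the 22 nt share 23.3% and the 5p share 10.4%; rare tags then weigh as much as common ones. Scaled to all reads of the list, the levels were 461 and 2.33 in each 1000000, and scaled to exact hairpin reads the 3p level was 3994. With C or G in place of A or T, the tailed share was 0.558%. The rank of the tailed share (9 of 138 arms) was 18 of 321 arms with at least 100 reads, 5 for T alone and 95 for A alone, and, in the alternative added after seeing the data, 1 of the 13 arms with like end bases; with tags of at least 10 reads it was 8 of 134. The SC1 count (8) was 7 at the main start, 4 at 17 nt and 7 in tags of at least 2 reads. Depth limits the values that rest on few reads, such as the 5p arm (44 reads), the start 1 base downstream (22 reads), the rarer starts (1 to 3 reads) and the SC1 note (8 reads).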
